A study of Mus musculus with 6 samples.

Results

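Rarres2, Htr2b, Nrcam, Adamdec1, F13a1 and Hal are 6 of the 34741 genes measured on the arrays, and they were chosen by their signals on the 4 macrophage arrays, for large differences between knockout and wild-type cells or TNF responses that favoured the knockout. All probes that the array design names for these genes were taken, which gave 9 probes on each of 6 arrays. Since the macrophage values chose the genes, those values are given as a description and without a test. The genes come from different pathways and encode a chemoattractant, a receptor, an adhesion molecule, a protease, a crosslinking enzyme and a metabolic enzyme.

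The study compared mice lacking TIARP, the protein of the gene Steap4, with wild-type mice. TIARP is a membrane metalloreductase known to be induced by TNF, a cytokine that drives inflammation in arthritis. Macrophages were washed from the peritoneal cavity 3 days after injection of thioglycollate, an irritant that draws leukocytes into the cavity, and neutrophils were taken from the spleen with magnetic beads against Ly6G. The 6 groups were TIARP-/- and TIARP+/+ macrophages kept without TNF, TIARP-/- and TIARP+/+ macrophages given TNFα for 24 hours, and TIARP-/- and TIARP+/+ splenic neutrophils, all on the C57BL/6 strain. Below, KO stands for TIARP-/- and WT for TIARP+/+. Each group had 1 one-colour Agilent array, labelled as mice 1 to 3. The labels do not state whether the RNA of these mice was pooled, nor the age of the animals.

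With 1 array in each group there is no replicate error, so no difference below has a p-value and none can be separated from variation between animals or cultures. Values are processed signals, which are background-subtracted spot intensities in arbitrary units, and each member probe was spotted 1 time. The scanner software's own error for the 44 member spots well above background, of 54 in all, ran between 10% and 22% of the signal, with a median of 10.1%. It covers the spot measurement only. Probes spotted at least 5 times varied between the spots of 1 array with a median log2 SD of 0.07. Differences are log2 ratios, of KO over WT, of TNF over no TNF or of neutrophils over macrophages, after each array was divided by its 75th percentile signal, which ran from 224 on the KO neutrophil array to 490 on the WT macrophage array without TNF. A gene is called different where its ratio is at least 2-fold and the brighter spot is well above background. Where the dimmer spot is not, the ratio is a lower bound and is written "at least".

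Steap4 itself had signals of 83.1 on the KO array and 175 on the WT array of macrophages without TNF. With TNF it had 12.8 on the KO array and 49.2 on the WT array, and neutrophils gave 36.0 on the KO array and 48.8 on the WT array. It was lower on the KO array in each of the 3 conditions, by 0.81, by at least 1.59 and by 0.39 on the log2 scale. The KO signal with TNF was not well above background, and the other KO signals were. Steap4 was not higher on the arrays with TNF: it was lower there by 1.65 in WT macrophages and by at least 2.42 in KO macrophages. The labels do not give the deleted part of the gene, so this probe does not settle the genotype. All 14 macrophage markers and all 11 mature neutrophil markers were well above background on all 6 arrays, the neutrophil and the macrophage arrays alike. The samples were bulk RNA, in which fewer cells of a type and less RNA per cell cannot be told apart.

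Rarres2 encodes chemerin, a secreted chemoattractant that becomes active when proteases trim its end and then draws macrophages, dendritic cells and NK cells through the receptor Cmklr1. Htr2b encodes a serotonin receptor that signals through Gq proteins and is known from macrophages as well as from heart and gut. Nrcam encodes an adhesion molecule of the L1 family, studied mostly in neurons. Adamdec1 encodes a secreted, atypical member of the ADAM metalloproteases known from macrophages and gut. F13a1 encodes the catalytic subunit of coagulation factor XIII, a transglutaminase that crosslinks fibrin and that macrophages and platelets store. Hal encodes histidine ammonia-lyase, which starts histidine breakdown and is known best from liver and skin.

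Adamdec1, F13a1 and Hal each have 2 probes at different places of the gene. The second Hal probe is assigned to another transcript record than the main one, so that it need not read the same RNA. The second probes of Adamdec1 and F13a1 are printed because they read these genes nearer the start of the transcript than the main probes do. The Adamdec1 probe A_55_P1990346 lies at chr14:69186779-69186838 on the minus strand of mm9 and begins at base 1269 of the transcript, against base 2323 for the main probe A_51_P164296. The F13a1 probe A_55_P2186125 lies at chr13:37063829-37063888 on the minus strand and begins at base 711, against base 3652 for the main probe A_51_P507801. Both are given 5′ to 3′ in lower case.
Adamdec1 A_55_P1990346: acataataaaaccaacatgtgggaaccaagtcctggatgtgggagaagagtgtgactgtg
F13a1 A_55_P2186125: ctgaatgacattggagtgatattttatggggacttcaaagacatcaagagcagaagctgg

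**Figure D1:**
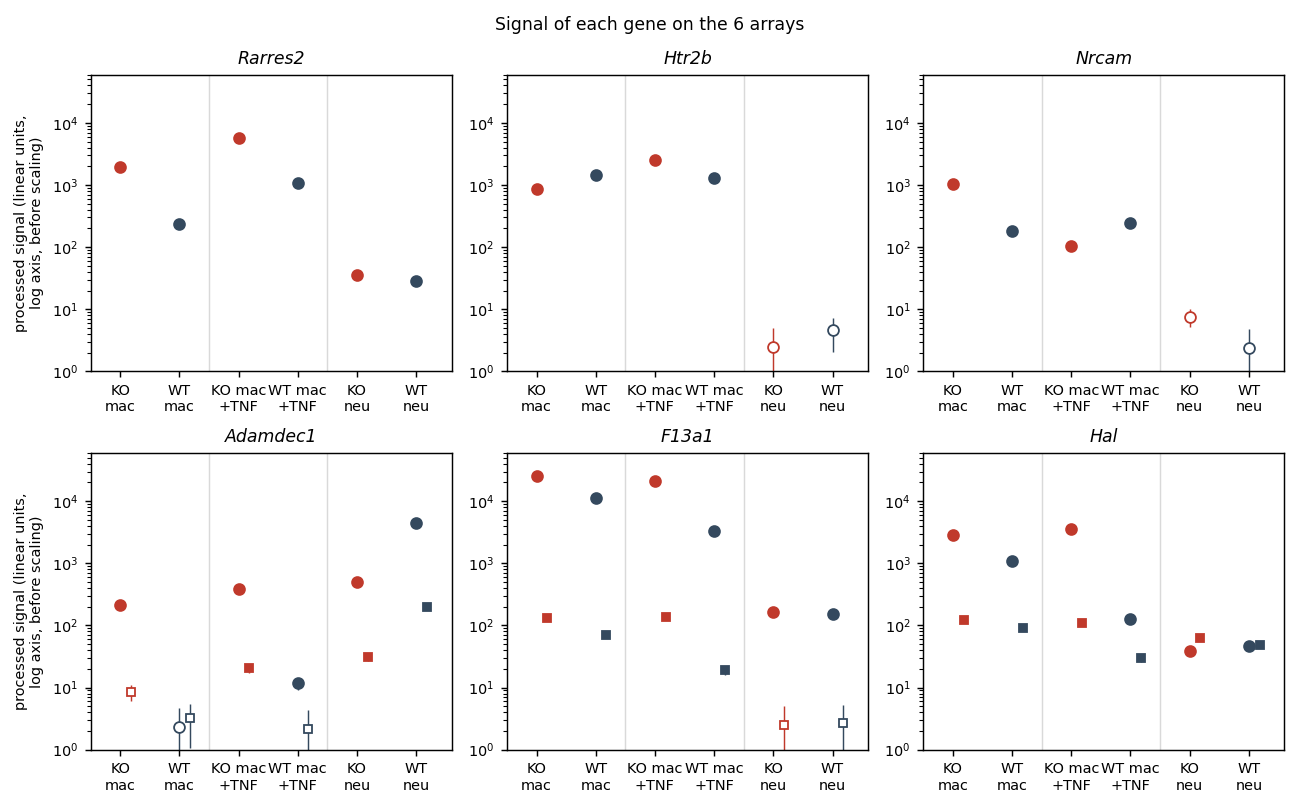
Processed signal of each member probe on the 6 arrays, on a log axis in arbitrary units, with KO left of WT in each condition. Circles are the main probe, squares a second probe, open symbols are spots not well above background, and error bars are the scanner software's own signal error. Rarres2 is brighter on both KO macrophage arrays than on both WT ones, and Adamdec1 is brightest on the WT neutrophil array.

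Rarres2, read by the probe A_52_P466147 (NM_027852, mm9 chr6:48519775-48519969, minus strand), was higher in KO macrophages whether or not TNF was given. Its signal was 1983 ± 198 on the KO array and 232 ± 23.3 on the WT array without TNF (software error, 1 spot each). With TNF it was 5752 ± 575 on the KO array and 1077 ± 108 on the WT array. KO macrophages without TNF were thus above WT macrophages with TNF. The log2 difference was 3.35 (10.2-fold) without TNF and 2.77 (6.83-fold) with TNF. TNF itself went with higher Rarres2 in both genotypes, 3.52-fold in KO and 5.27-fold in WT macrophages, and the difference of these responses was -0.58. Neutrophils had low signals, 35.8 on the KO array and 28.0 on the WT array, a difference of 0.40 that became -0.01 when arrays were scaled to the spike-in RNA.

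Hal, which has its main probe A_51_P172155 (NM_010401) at mm9 chr10:92979135-92979194 on the plus strand, differed most between genotypes once TNF was present. Its signal was 2869 on the KO array and 1076 on the WT array without TNF, and 3592 on the KO array and 126 on the WT array with TNF. The KO level differed by less than 2-fold between the conditions, while the WT level was lowest with TNF. KO over WT was 3.19-fold without TNF and 36.5-fold with TNF (log2 5.19). The second probe A_55_P2263053, which the design assigns to ENSMUST00000129421 (mm9 chr10:92981534-92981593), gave smaller ratios in the same direction. Its signals were 124 on the KO array and 90.0 on the WT array without TNF, and with TNF 109 on the KO array and 29.9 on the WT array, or 1.65-fold and 4.67-fold. In neutrophils the main probe read 39.2 on the KO array and 46.4 on the WT array, and the second probe 63.0 on the KO array and 49.3 on the WT array. The probes differed in sign there, at -0.20 and 0.40, and neither reached 2-fold.

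F13a1 was higher in KO macrophages at both of its probes. The main probe (NM_028784, mm9 chr13:36959214-36959273, minus strand) read 25215 on the KO array and 11327 on the WT array of macrophages without TNF. With TNF it read 20980 on the KO array and 3293 on the WT array. The KO arrays were close to each other and the WT arrays were not. KO over WT was 2.66-fold without TNF and 8.15-fold with TNF (log2 1.41 and 3.03). The second probe, shown above, read 130 on the KO array and 69.1 on the WT array without TNF, and with TNF 139 on the KO array and 18.9 on the WT array. Its ratios of 2.25-fold and 9.44-fold were near those of the main probe. In neutrophils the main probe read 163 on the KO array and 150 on the WT array, a difference of 0.17, and the second was not well above background.

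Adamdec1 was near background in WT macrophages and above it in KO macrophages. The main probe (NM_021475, mm9 chr14:69181473-69181532, minus strand) read 211 on the KO array without TNF, while the WT array read 2.31, which was not well above background. With TNF it read 386 on the KO array and 11.8 on the WT array. KO was at least 25.2-fold above WT without TNF and 41.8-fold with TNF. The second probe read 20.3 on the KO array with TNF, against 2.16 on the WT array, not well above background, or at least 2.61-fold, and without TNF neither genotype was above background. With another background correction (normexp) the 2 differences of the main probe shrank to 2.22 and 2.96 on the log2 scale, below the 3.05 of Rarres2 without TNF and the 4.52 of Hal with TNF under the same correction.

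Nrcam, with its probe A_55_P2003541 (NM_176930, mm9 chr12:45699758-45699817, plus strand), was higher in KO macrophages kept without TNF and not in those given TNF. It read 1020 on the KO array and 180 on the WT array without TNF, and 106 on the KO array and 243 on the WT array with TNF. The order of the genotypes was opposite in the 2 conditions. The log2 difference was 2.76 (6.78-fold) without TNF and -0.84 with TNF. Spike-in scaling took the second value to -1.62, past the 2-fold limit. Neutrophils gave 7.57 on the KO array and 2.39 on the WT array, neither well above background.

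Htr2b, with its probe A_55_P1977498 (NM_008311, mm9 chr1:87995712-87995771, minus strand), was not higher in KO macrophages without TNF. It read 870 on the KO array and 1440 on the WT array without TNF, and 2483 on the KO array and 1307 on the WT array with TNF. The KO array with TNF stands alone as the high one. The log2 difference was -0.47 without TNF and 1.28 (2.43-fold) with TNF, and spike-in scaling took the value with TNF to 0.50. In neutrophils it read 2.46 on the KO array and 4.68 on the WT array, neither well above background.

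**Figure D2:**
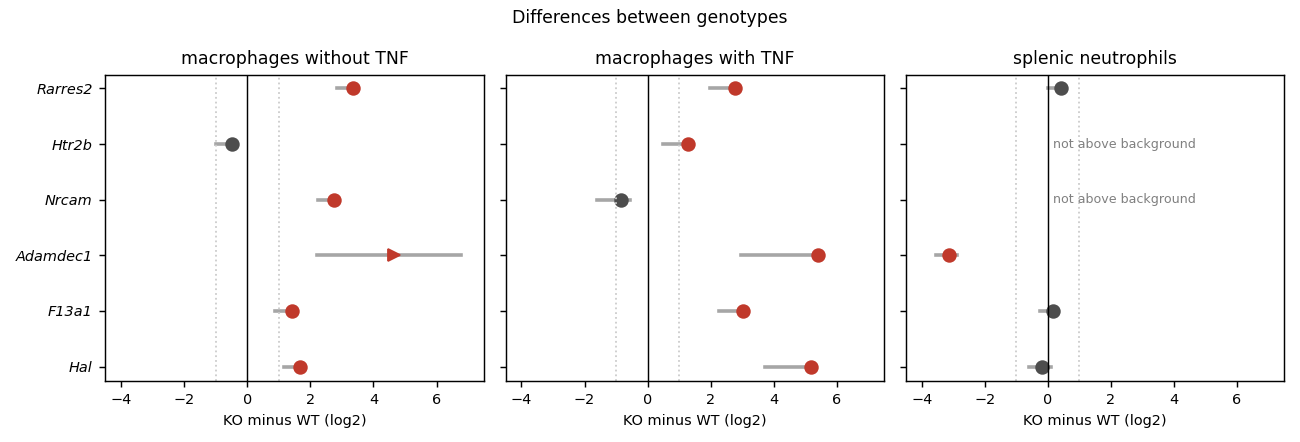
Log2 difference, KO minus WT, of each member in macrophages without TNF, macrophages with TNF and splenic neutrophils. Points are the values of the main probe, triangles mark lower bounds and grey bars the range over the processing settings. Adamdec1 lies above 0 in macrophages and at -3.15 in neutrophils.

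Without TNF, 5 of 6 members were called higher on the KO macrophage array and 0 lower, where 4.09% and 1.55% of 24585 genes were. With TNF the counts were also 5 higher and 0 lower, where 6.98% and 2.69% of 23703 genes were. These contrasts chose the genes, so the counts carry no weight of their own. The split of all genes depended on the scaling: with spike-in scaling 1.77% of genes were higher and 7.15% lower in the arrays without TNF, while 1.95% were higher and 20.9% lower in those with TNF, where quantile normalization gave 4.82% and 3.1%. That scaling moved KO-minus-WT differences by a median of -0.52 without TNF and -0.78 with TNF on the log2 scale, and it took F13a1 to 0.89 in the condition without TNF, under the 2-fold limit.

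In neutrophils, a contrast that did not enter the choice, Adamdec1 was lower on the KO array and no member was higher. The main probe read 493 on the KO array and 4512 on the WT array, a log2 difference of -3.15 (8.85-fold lower), the 43rd lowest of 23969 genes ranked. The second probe read 30.9 on the KO array and 199 on the WT array, or 6.23-fold lower. Adamdec1 was thus the one member whose genotype difference had opposite signs in macrophages and neutrophils at more than 2-fold. Of the 4 members with a tested value 1 was lower and 0 were higher, where 4.73% and 3.65% of 23972 genes were. The median was -0.02 for the 4 members and -0.01 for all genes. With spike-in scaling 10% of genes were lower and 1.51% higher, and Adamdec1 was at -3.56.

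Markers of other cells moved with genotype in the same arrays. Beside the counts below, 4.09% of all genes were higher and 1.55% lower without TNF, and 6.98% and 2.69% with TNF. In macrophages without TNF, 7 of 11 mature neutrophil markers were higher on the KO array and 0 lower, with a median difference of 1.81. S100a9, which neutrophils hold in large amounts as part of calprotectin, read 74934 on the KO array and 2969 on the WT array. With TNF 6 of 11 were higher, with a median of 1.28. With spike-in scaling 6 were higher without TNF, and 3 were higher and 2 lower with TNF. B cell markers were higher for 4 of 8 without TNF and for 6 of 8 with TNF, or 4 and 3 with spike-in scaling. Those of mesothelial cells and fibroblasts were lower for 5 of 10 without TNF and 4 of 10 with TNF, or 7 and 8 with spike-in scaling. On the KO arrays 3 of 6 genes of mast cells and basophils were higher without TNF and 2 of 6 with TNF, or 0 in both with spike-in scaling. None of the 14 macrophage markers differed by 2-fold without TNF. With TNF Fcgr1 was higher on the KO array, at 2.14, and no other marker of that list reached 2-fold.

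Adamdec1 was read against these markers because WT neutrophils gave its highest signal. Taken as a percentage of its level on the WT neutrophil array, it was 2.64% on the KO array and 0.0241% on the WT array of macrophages without TNF, the last not well above background. With TNF it was 5.85% on the KO array and 0.14% on the WT array. S100a9 was at 15.2% on the KO array and 0.504% on the WT array without TNF, and with TNF at 13.7% on the KO array and 0.799% on the WT array. The 11 neutrophil markers had medians of 15.2% on the KO array, within 4.56% to 63.7%, and 3.2% on the WT array, within 0.504% to 58.6%, without TNF. With TNF the medians were 21.8% on the KO array, within 4.55% to 290%, and 17.5% on the WT array, within 0.795% to 433%. Mmp9, which was higher with TNF in both genotypes, gave the 290% and the 433%. Cxcr2 was at 9.16% on the KO array and 0.795% on the WT array. On the KO neutrophil array Adamdec1 was 8.85-fold lower than on the WT one, so that array is a lower reference. S100a9 differed by 0.05 there. On the log2 scale after scaling, Adamdec1 was at 1.14 in KO neutrophils, and in KO macrophages at -0.96 without TNF and 0.19 with TNF. S100a9 was at 10.28 in KO neutrophils, and in KO macrophages at 7.52 without TNF and 7.36 with TNF. The part of neutrophil RNA in the Adamdec1 difference was not tested. Rarres2, F13a1 and Hal had higher levels on all 4 macrophage arrays than on either neutrophil array at their main probes.

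In neutrophils other markers differed as well, where 3.65% of all genes were higher and 4.73% lower. Of 14 macrophage markers 8 were lower on the KO array, with a median of -1.15, among them Adgre1 at -1.39. Among markers of resident peritoneal macrophages, Vsig4 was lower by at least 2.94 and Cd5l was at -2.72, while Selp was higher at 1.07. Plasma cell markers were lower for 4 of 6 and eosinophil markers for 4 of 6, with Prg2, an eosinophil granule protein, at -4.05, while the eosinophil marker Siglecf was higher at 1.57. Mature neutrophil markers were higher for 3 of 11 and erythroid markers for 6 of 7, with the remaining one, Epor, lower at -1.04. Their part in the Adamdec1 difference was not tested.

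Between the cell types, WT neutrophils had less of 5 members than WT macrophages without TNF and more of Adamdec1. Htr2b was at least 61.3-fold lower, F13a1 35.6-fold, Hal 10.9-fold, Nrcam at least 7.66-fold and Rarres2 3.91-fold lower. Adamdec1 was at least 953-fold higher at its main probe and at least 41.9-fold at the second. Among 25060 genes, 17.9% were lower and 26.4% higher, and with spike-in scaling 61.6% were lower and 7.72% higher. The WT macrophage array also entered the choice of the genes. Hal depended on the probe, since its second probe differed by 0.22, and with normexp correction Rarres2 and Nrcam were at -0.86 and -0.97.

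**Figure D3:**
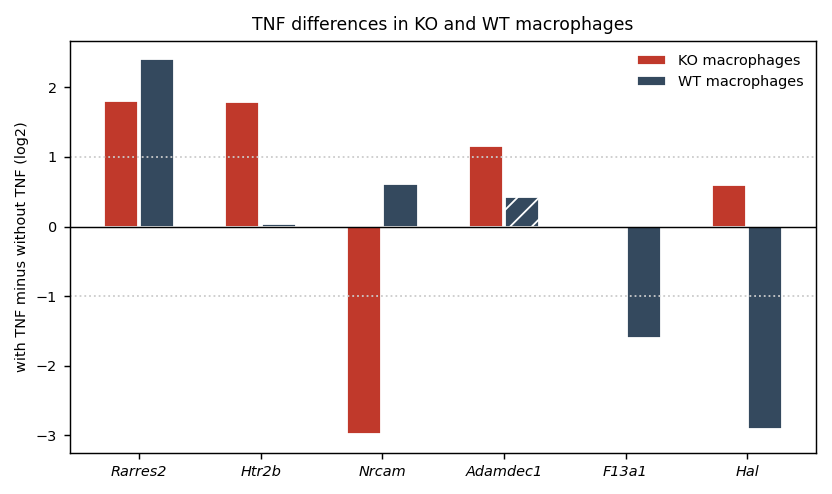
Log2 difference between macrophages with TNF and without TNF, for each member, with the KO bar left of the WT bar. A hatched bar is a lower bound, and the KO bar of F13a1 is too short to see at 0.01. Hal and F13a1 are lower with TNF on the WT arrays only, and Nrcam is lower with TNF on the KO arrays only.

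The response to TNF differed by at least 2-fold between the genotypes for 4 of the 5 members that could be compared, and each is a description of the same 4 arrays as above. Hal differed with TNF by 0.60 in KO macrophages and by -2.91 (7.54-fold lower) in WT macrophages, and F13a1 by 0.01 in KO and -1.60 (3.03-fold lower) in WT macrophages. Their second probes gave 0.09 for Hal and 0.37 for F13a1 in KO macrophages, and -1.41 for Hal and -1.69 for F13a1 in WT macrophages. Nrcam was lower with TNF by 2.98 (7.92-fold) in KO macrophages and differed by 0.61 in WT macrophages. Htr2b was 3.46-fold higher with TNF in KO macrophages and differed by 0.04 in WT macrophages.

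The difference of responses, KO minus WT, was 3.52 for Hal, 1.75 for Htr2b, 1.61 for F13a1 and -3.60 for Nrcam. Hal was the second highest of 21740 genes and Nrcam the 5th lowest. Of 5 members 3 were higher and 1 lower, where 1.49% and 0.621% of genes were. In KO macrophages 3 of 6 were higher with TNF and 1 lower, where 4.45% and 3.73% of 23912 genes were. In WT macrophages 1 was higher and 2 lower, where 4.41% and 4.6% of 24600 genes were. Adamdec1 was 2.21-fold higher with TNF in KO macrophages, a value that fell to 0.85 on the log2 scale with spike-in scaling and 0.97 with normexp, and at least 1.33-fold in WT macrophages. Spike-in scaling also turned the split of the difference of responses, to 0.649% higher and 1.61% lower, and that of TNF in KO macrophages, to 2.61% higher and 7.18% lower.

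The stretches before the starts of 4 members are shown because these members gave different responses to TNF. They are the 250 bases upstream in the RefSeq promoter table (GRCm38.p6), which matched 4 of the 6 members. Htr2b lies at chr1:86111981-86112230 on the minus strand, F13a1 at chr13:37050245-37050494 on the minus strand, Hal at chr10:93488518-93488767 and Nrcam at chr12:44328635-44328884 on the plus strand. Capitals mark matches, on either strand, to GAGGAA (a PU.1 core), TGANTCA (AP-1) or TTGCNNAA (C/EBP), and the sequences run 5′ to 3′.
Htr2b: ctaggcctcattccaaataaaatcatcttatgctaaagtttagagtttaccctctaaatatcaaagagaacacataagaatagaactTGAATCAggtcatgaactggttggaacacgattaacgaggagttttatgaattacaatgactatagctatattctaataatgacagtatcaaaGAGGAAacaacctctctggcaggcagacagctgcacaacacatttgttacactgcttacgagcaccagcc
F13a1: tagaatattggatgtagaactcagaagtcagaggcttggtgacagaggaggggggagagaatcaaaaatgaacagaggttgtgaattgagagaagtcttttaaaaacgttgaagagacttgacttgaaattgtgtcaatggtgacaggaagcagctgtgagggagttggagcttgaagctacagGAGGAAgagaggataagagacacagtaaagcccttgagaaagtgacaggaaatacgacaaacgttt
Hal: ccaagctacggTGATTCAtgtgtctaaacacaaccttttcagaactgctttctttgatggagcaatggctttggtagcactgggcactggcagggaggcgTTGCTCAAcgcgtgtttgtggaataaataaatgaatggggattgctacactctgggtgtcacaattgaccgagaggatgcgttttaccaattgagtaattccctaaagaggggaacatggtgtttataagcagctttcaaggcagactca
Nrcam: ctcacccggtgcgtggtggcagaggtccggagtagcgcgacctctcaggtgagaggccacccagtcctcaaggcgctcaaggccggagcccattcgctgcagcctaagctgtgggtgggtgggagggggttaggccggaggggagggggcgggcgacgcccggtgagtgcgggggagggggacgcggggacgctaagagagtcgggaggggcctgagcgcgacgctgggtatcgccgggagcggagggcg

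In every promoter entry only the 250 bases upstream of the start were searched. The GAGGAA motif occurred at -70 in Htr2b and -66 in F13a1, counted from the start, and in 23.3% of all 32851 entries. The AP-1 motif occurred at -163 in Htr2b and -239 in Hal, and in 6.7% of entries. The C/EBP motif occurred at -150 in Hal and in 9.6%. The Nrcam entry held none of the 6 motifs searched and had a GC content of 72.4%, against a median of 52.4%. Motifs for interferon response (GAAA, 2 free bases, GAAA), STAT (TTCNNNGAA) and NF-kB (GGGA, 1 free base, TT, 1 free base, CC) were in none of the members' entries and in 3.0%, 7.0% and 1.0% of all. A second F13a1 entry held no match.

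Chemerin acts through receptors and is cut by proteases, so 14 such genes were read beside Rarres2. Without TNF 1 of 10 was higher on the KO macrophage array, the mast cell tryptase Tpsb2 (1018 on the KO array and 601 on the WT array, 1.02), and with TNF 2 of 11, Tpsb2 at 1.5 and the mast cell chymase Cma1 at 1.23. Neither stayed higher with spike-in scaling, where the counts were 0 higher and 1 and 2 lower. The median was 0.51 without TNF and 0.66 with TNF, where that of all genes was 0.07 and 0.06. In neutrophils 0 of 8 differed. The receptors Ccrl2 and Cmklr1 were higher with TNF in both genotypes, by 2.13 and 1.12 in KO and 2.39 and 1.47 in WT macrophages, where spike-in scaling took Cmklr1 in KO macrophages to 0.82.

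Of the 14 genes of histidine and histamine handling read beside Hal, 0 of 10 differed in macrophages without TNF. With TNF 1 of 10 was higher, Hdc, which makes histamine from histidine, at 1.08, or 0.30 with spike-in scaling. In neutrophils Hdc read 27323 on the KO array and 6784 on the WT array (2.06), and the histamine methyltransferase Hnmt was at 1.21, or 0.80 with spike-in scaling. The enzymes that follow Hal in histidine breakdown were barely measured: Uroc1 and Ftcd were on no array well above background, and Amdhd1 was so on the macrophage arrays without TNF alone, with 15.6 on the KO array and 11.4 on the WT array.

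Of 31 genes of coagulation, transglutaminases and fibrinolysis read beside F13a1, 1 of 23 was higher in KO macrophages kept without TNF, Fgl2 at 1.01 (0.48 with spike-in scaling), and 2 were lower, Tfpi at -1.11 and Plat, the tissue plasminogen activator, at -1.04. With spike-in scaling 0 were higher and 4 lower. With TNF 0 were higher and 3 lower (9 with spike-in scaling), Plat at -1.25, Tfpi at -1.17 and Procr at -1.03. In neutrophils 2 of 22 were higher, F5 at 2.49 and Fgl2 at 1.32 (0.91 with spike-in scaling), and 2 lower, among them Tfpi at -1.29. TNF itself went with higher F3, the tissue factor gene, by 2.77 in KO and 3.13 in WT macrophages. None of 22 differed between the genotypes in its TNF response by 2-fold.

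Of 17 ADAM proteases and inhibitors read beside Adamdec1, Adam17, which sheds TNF from the cell surface, was higher on all 3 KO arrays, though with TNF spike-in scaling took it to 0.72, under the 2-fold limit. It read 1095 on the KO array and 399 on the WT array of macrophages without TNF, and with TNF 1314 on the KO array and 593 on the WT array. In neutrophils it read 222 on the KO array and 44.6 on the WT array, and the log2 differences in this order were 1.71, 1.5 and 2.36. Adam23 and the inhibitor Timp3 were lower in KO macrophages, at -1.27 and -1.13 among 15 genes tested without TNF and at -1.22 and -1.05 among 14 with TNF. With spike-in scaling 3 genes of the list were lower without TNF, 4 with TNF and 5 in neutrophils. In neutrophils Adam8 was at 1.58 and Adam28, the next gene to Adamdec1 in the RefSeq order, was lower by at least 1.14, out of 16.

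Of 18 L1-type adhesion molecules and partners read beside Nrcam, 1 of 17 was higher in KO macrophages kept without TNF, Chl1 by at least 1.27 (0.74 with spike-in scaling). With TNF 3 of 16 were lower, or 7 with spike-in scaling, among them the semaphorin receptor Nrp1 at 361 on the KO array and 1118 on the WT array (-1.28). Nrp1 was also lower with TNF in KO macrophages, by 1.42, and the difference of its responses was -1.19. In neutrophils 1 of 16 was higher, Ank1 by at least 1.88.

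Of 24 serotonin receptors, enzymes, transporters and Gq signalling genes read beside Htr2b, 1 of 19 was higher without TNF and 2 lower. Maob, which breaks down monoamines, was at 2.27, Htr2a was lower by at least 2.21 and Ddc, a serotonin-making enzyme, was at -1.13. With TNF 3 of 19 were higher and 2 lower: Maob by at least 1.90, the receptor Htr7 at 1.79, Tph1, which makes serotonin from tryptophan, at 1.40, Ddc at -1.42 and Htr2a by at least 3.08 lower. With spike-in scaling 1 was higher and 3 lower without TNF, and 2 were higher and 6 lower with TNF, with Tph1 at 0.62. Htr7 read 1034 on the KO array and 383 on the WT array with TNF, and 60.5 on the KO array and 40.0 on the WT array without it, so that TNF went with a 20.7-fold higher level in KO and 10.9-fold in WT macrophages. In neutrophils 3 of 12 were higher, Plcb4 at 1.70, the serotonin transporter Slc6a4 at 1.35 and Ddc by at least 1.32, and Htr6 was lower at -1.06. Spike-in scaling took Slc6a4 to 0.94 and Ddc to 0.90 there.

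**Figure D4:**
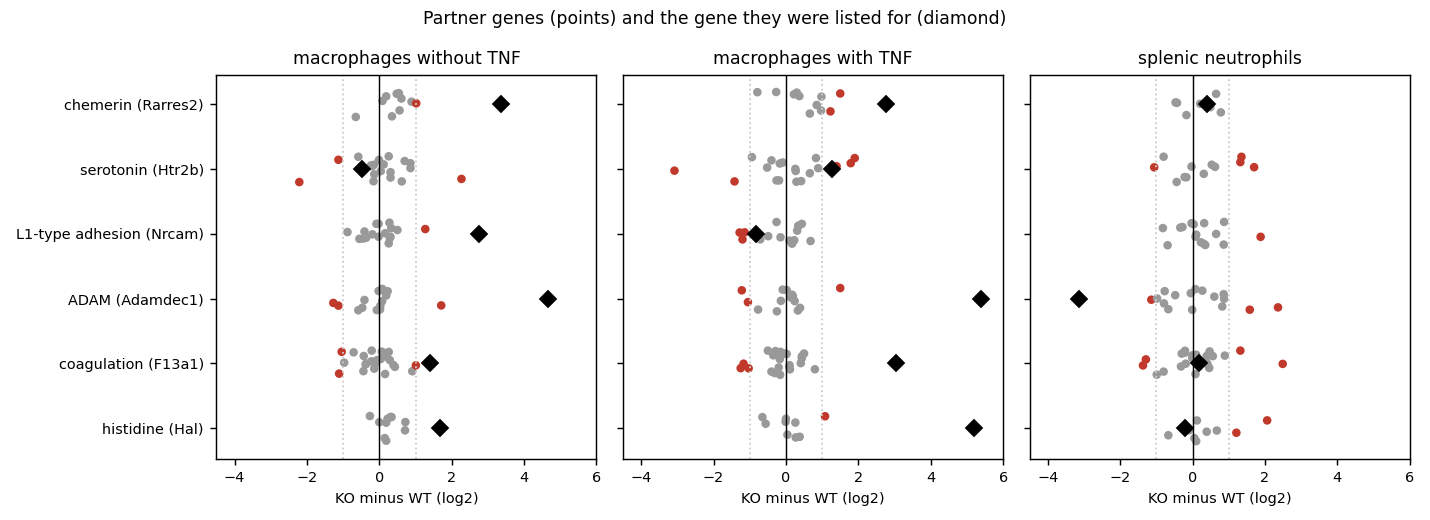
Log2 difference, KO minus WT, of the genes in each of the 6 lists read beside the members, with 1 point per gene. Red points differ by at least 2-fold under the call rule, and most points of each list lie within 2-fold of 0.

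Genes with the nearest profile over the 6 arrays were found by the root mean square difference of centred log2 values among 15994 genes, as a description with the 6 arrays as points. Rarres2 lay nearest Wnk2 (0.74, r 0.96), Mgarp (0.84) and Sprr2d (0.90). Htr2b lay nearest Mmp14 (0.48, r 0.992), Rai14 (0.49) and Ccl2 (0.52). Nrcam lay nearest Plin2 (0.82, r 0.952), with Dio2 (0.84) also close, F13a1 nearest Eno2 (0.59, r 0.98), Fcer1a (0.61) and Il33 (0.62), and Hal nearest Pianp (0.71, r 0.967), Cxcl13 (0.98) and F13a1 (0.99). Adamdec1 had no near neighbour: its closest was S100a9 at 1.40 (r 0.959), then Asprv1 at 1.78 and Stfa1 at 1.82. A near profile need not share the genotype difference, since the distance also takes in the gap between macrophages and neutrophils. KO-minus-WT differences of Mmp14 were -0.16 without TNF and -0.19 with TNF, against -0.47 and 1.28 for Htr2b. Those of Plin2 were 0.35 and -0.06, against 2.76 and -0.84 for Nrcam. Wnk2 had 1.67 and 1.5, Eno2 1.5 and 1.92, Pianp 2.0 and 3.99, and S100a9 4.92 and 4.1. Among the members F13a1 and Hal were the closest pair, and Adamdec1 lay 5.14 to 7.06 from the others with r of -0.66 to -0.23.

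**Figure D5:**
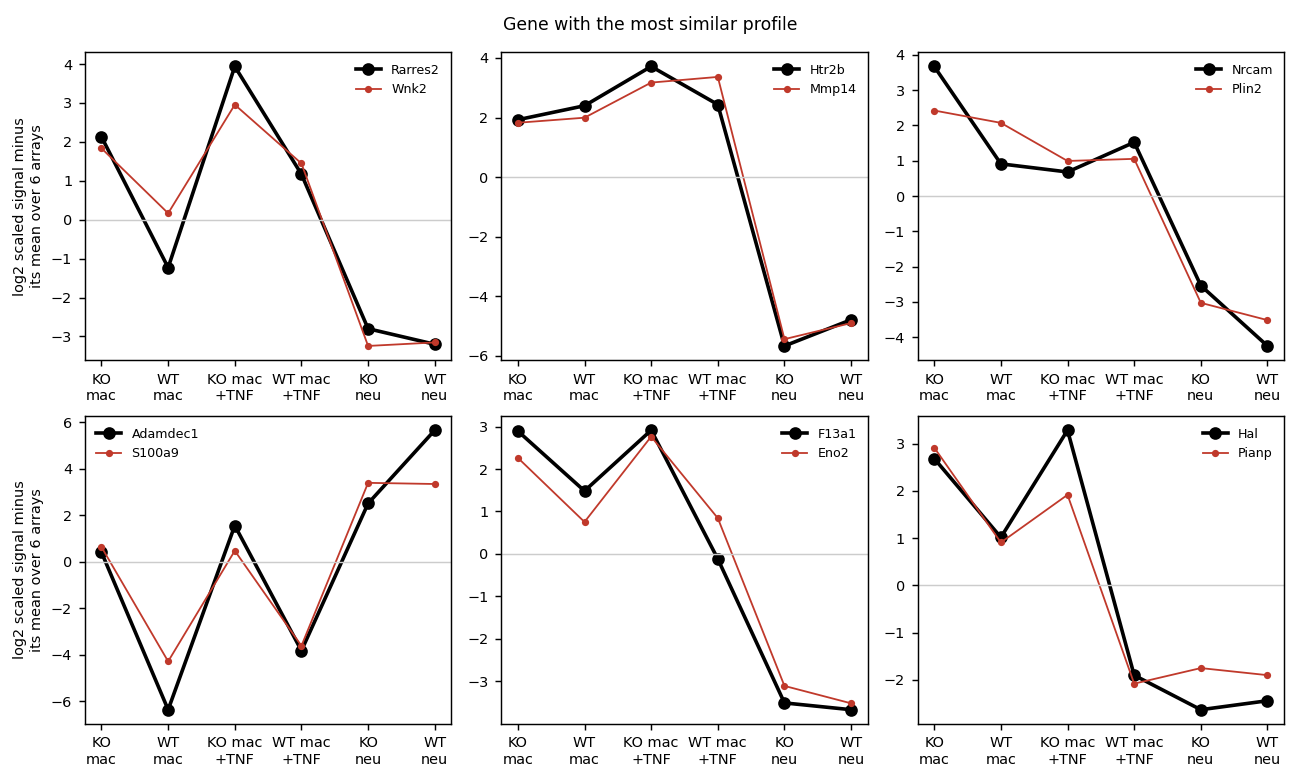
Centred log2 level over the 6 arrays of each member and its nearest gene, with KO left of WT in each condition. S100a9, the nearest gene to Adamdec1, shares its high levels on the neutrophil arrays, and the nearest genes of the other members are low there.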

How the data were processed

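Total RNA was labelled with Cy3 and hybridised to 1-colour Agilent arrays, 1 per group, per the labels. The deposited files hold a spot intensity per feature as background-subtracted processed signal, with the mean and background intensity beside it, from Agilent Feature Extraction 10.7.3.1 per the submitters' processing notes and the file headers. Of 62976 spots, 59305 were gene probes. No spot was saturated, and 101 to 121 outlier spots per array were left out. All 6 arrays lay on 1 slide and 1 scan.

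Log2 signals minus each array's 75th percentile were averaged over repeated spots (55681 probes), and each gene was read by its brightest probe. Calls needed a log2 difference of at least 1 and a brighter spot well above background, with bounds against each array's lowest such signal. Gene names came from RefSeq through accession (27235 probes), symbol (3581) or synonym (565), and otherwise from the file (24300). Alternatives changed 1 choice at a time in 8 ways: quantile normalization, 2 other scalings, normexp background correction (limma 3.58.1, offset 50), no filter and a stricter filter on dim probes, the median over a gene's probes, and a 4-fold limit. Probe coordinates are mm9 per the file headers, promoters are RefSeq GRCm38.p6. With 1 array per group no comparison between 2 groups was tested. A fit of genotype over the 3 conditions was not made, since it would rest on the macrophage arrays that chose the members.

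The members, the 6 lists read beside them and the 15 marker lists were chosen with earlier results of these data known. By rule, the genes named beside a member are Steap4, its 3 nearest profiles, and up to 2 genes called higher and 2 called lower with the largest difference in each list. Procr, Tph1, Ddc in neutrophils, and the genes of the histidine route not above background were added after their values were seen. Some genes that the rule names are not reported here. The neighbouring genes were read after the values were seen. Calls were tested on simulated data with known differences, in which all genes were set as above background.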

Additional observations from a re-analysis of the deposited data

Results flagged for a closer look

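None of the following differences was tested, since each group had 1 array. Htr2b had KO-minus-WT differences of 1.28 with TNF and -0.47 without TNF, which lie 1.75 apart with opposite signs. Nrcam had -0.84 with TNF and 2.76 without, which lie -3.60 apart. Both are the same numbers as their differences of TNF responses.

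Adamdec1 had KO-minus-WT differences of at least 4.65 in macrophages without TNF and 5.39 with TNF, and -3.15 in neutrophils, so that they lie at least 7.80 apart without TNF and 8.53 apart with TNF. Hal had 1.67 and 5.19 in macrophages and -0.20 in neutrophils, 1.87 and 5.39 apart, and the neutrophil value changed sign with the probe used.

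The TNF response had opposite signs in KO and WT macrophages for Nrcam (-2.98 and 0.61, a difference of -3.60), for Hal (0.60 and -2.91, a difference of 3.52) and for F13a1 (0.01 and -1.60, a difference of 1.61). The KO value of F13a1 lies too near 0 for its sign to be read.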

How the results depend on the processing

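Of 306 member values recomputed under the 8 alternatives, 288 kept their call, 16 lost it and 2 gained one, and 0 called values changed sign. The 4-fold limit is among these alternatives, and under it a call can be lost while the value stays above 2-fold. Values under the limit did change sign: in neutrophils Rarres2 reached -0.01 and F13a1 -0.25 with spike-in scaling and Hal 0.10 with the median over its probes, and for the response to TNF F13a1 reached -0.29 in KO macrophages with spike-in scaling and Htr2b -0.01 in WT macrophages with quantile normalization. In KO macrophages F13a1 was also below 0 with quantile normalization and normexp. No paired analysis was made, because each group has 1 array and the arrays carry no shared replicate number. Of the 112 counts of members, 101 stayed within 1.5 times, and of 2352 counts of marker and partner lists 378 did not. With spike-in scaling 1 member was lower with TNF, which was Nrcam. With normexp 3 members were lower in WT neutrophils than in WT macrophages. With no filter on dim probes 1 member was higher in KO neutrophils, 2 were higher with TNF in WT macrophages and 2 had a lower difference of responses. Where probes had to be above background on every array of a comparison, 0 members were higher and 3 lower in WT neutrophils than in WT macrophages. With a 4-fold limit 3 members were higher in KO macrophages without TNF, 0 were higher with TNF in KO and 1 lower in WT macrophages, and 1 had a higher difference of responses. The share of all genes called ran over 0.801% to 6.62% higher and 0.212% to 7.15% lower in KO macrophages without TNF, 1.41% to 9.0% and 0.338% to 20.9% with TNF, and 0.392% to 6.17% and 1.19% to 10% in neutrophils. Adamdec1 in WT macrophages and Htr2b and Nrcam in neutrophils were near or under background, and only bounds or no value could be given there. The cause of these shifts was not tested.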

Other observations

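The nearest protein-coding neighbours of the members, 3 on each side in the RefSeq order, were read after their values were seen. Of 24 neighbours with a tested value in macrophages without TNF 2 were higher on the KO array and 0 lower, where 4.09% and 1.55% of all genes were. Of 23 with TNF 3 were higher and 1 lower, where 6.98% and 2.69% of all genes were. Of 26 in neutrophils 1 was higher and 2 lower, where 3.65% and 4.73% of all genes were. Atp6v0e2, a subunit of the vacuolar proton pump that lies near Rarres2, was among the higher neighbours in all 3 conditions. It read 2026 on the KO array and 72.8 on the WT array without TNF, and with TNF 2181 on the KO array and 50 on the WT array. In neutrophils it read 148 on the KO array and 4.84 on the WT array, the second of these not well above background. The log2 differences in this order were 5.06, 5.80 and at least 3.78. Near Htr2b, 2810459M11Rik read 73.6 on the KO array and 26.3 on the WT array without TNF, and with TNF 148 on the KO array and 23.8 on the WT array (1.74 and 3.00). Adam28, next to Adamdec1, read 2.52 on the KO array, not well above background, and 23.9 on the WT array of neutrophils.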
